A study of Hordeum vulgare with 18 samples.

Results

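The miR393, miR390 and miR164 families are conserved plant microRNAs (miRNAs), short RNAs that guide the silencing of matching mRNAs, and all 3 act on auxin signalling or on development that depends on auxin. Members were chosen by annotation: every sequence in the 3 deposited tables whose name includes MIR393, MIR390 or MIR164, with or without a letter. There were 177 members among the 7252 sequences listed in any table, of which 68 were miR393, 30 miR390 and 79 miR164. The 1 h table held 125 members among its 4750 sequences, the 3 h table had 122 among 4671 and the 6 h table had 135 among 4603. All 3 tables shared 86 of them, 39 of miR393, 18 of miR390 and 29 of miR164. Member rows that also carried the name of another family numbered 0.

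Shoots came from 2-week-old plants of the spring barley line Rolap (Hordeum vulgare), a cereal, and total RNA was made into small RNA libraries. The heat groups spent 1, 3 or 6 h at 35.5 °C and the control groups stayed at 21 °C for the same durations, with 3 libraries in each of the 6 groups. The labels call the libraries biological replicates, and the sources used here do not say whether 1 library holds 1 plant or several. Plants of all groups grew at 21 °C by day until they were 2 weeks old, with 3 seedlings to a pot.

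Each library held 1449374 to 3214221 counts of listed sequences, 5.11 to 9.02% of the library total that the deposited RPM imply. A floor of 3 counts lay at 0.933 to 2.07 CPM before TMM scaling, and floors cover counting error only. Levels are CPM (counts scaled to 1 sum per library, with TMM factors, within a table). A log2 difference is heat over control, given with its SE, and a call is an adjusted p under 0.05 over all features of a table. The 1 h libraries shared sequencing lane 1 and the 6 h libraries lane 2, but at 3 h heat was on lane 1 and control on lane 2, so at 3 h temperature and lane cannot be told apart. Control replicate 1 of 3 h differed most from its own group (chi-square 408 and 423 for each degree of freedom). With heat replicate 2 of 6 h it lay apart in earlier work on these data, so averages over durations were also computed without both. By chi-square heat replicate 2 of 6 h did not stand out in its group (54.5 and 69.1, against 68.9 for the other pair). Heat replicate 3 of 1 h did (342 and 258, against 103 for the other pair). It was left out only where single libraries were left out. The tables hold only miRNA-matching sequences, so the shoot label was not checked against marker genes, and in whole shoots fewer cells of a type and less RNA per cell cannot be told apart.

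In flowering plants miR393 guides cleavage of mRNAs for the auxin receptors of the TIR1/AFB F-box family, and so sets how strongly cells sense auxin. The miR390 family works with the Argonaute protein AGO7 on noncoding TAS3 transcripts, which then yield small RNAs against mRNAs of auxin response factors. The miR164 family targets mRNAs of NAC transcription factors, among them the CUC genes that set organ boundaries. Each precursor hairpin gives a 5′ and a 3′ arm. One strand is mostly kept, and the other, the star strand, is usually degraded. Plant miRNAs pair with their targets along nearly their whole length. Bases 2 to 8 counted from the 5′ end, called the seed after animal miRNAs, serve here only to group forms that start at the same base.

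The sequences that carry most counts, and those on which the results turn, are printed as the files give them, with T for U and the seed in capitals. For miR393 these are the most abundant sequence and the second, which starts and ends 1 base later, followed by the longer 3′ ends:
miR393 main form: tTCCAAAGggatcgcattgat
miR393 shifted form: tCCAAAGGgatcgcattgatc
miR393 22 nt form: tTCCAAAGggatcgcattgatc
miR393 G form, 23 nt: tTCCAAAGggatcgcattgatcg
miR393 G form, 24 nt: tCCAAAGGgatcgcattgatcgat
miR393 T form, 22 nt: tCCAAAGGgatcgcattgatct
miR393 T form, 23 nt: tTCCAAAGggatcgcattgatct
The G forms and T forms differ in the base that follows the end of the shifted form.

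For miR390 both arms are shown, since the result at 6 h concerns the 3′ arm:
miR390 5′ arm, 21 nt: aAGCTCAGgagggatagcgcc
miR390 5′ arm, 22 nt: aAGCTCAGgagggatagcgcct
miR390 3′ arm: cGCTATCTatcctgagctcc
The longest run of the 3′ sequence that is complementary to the 21 nt 5′ sequence was 9 nt long and lay at bases 2 to 10 of the 5′ sequence, which covers its seed.

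For miR164 the forms differ in their start, their last base and their arm:
miR164 5′ arm, A end: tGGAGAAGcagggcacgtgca
miR164 5′ arm, T end: tGGAGAAGcagggcacgtgct
miR164 3′ arm: cATGTGCCcttcttctccacc
miR164 form, 1 base later: gGAGAAGCagggcacgtgctc
miR164 form, 1 base earlier: cTGGAGAAgcagggcacgtgc
miR164c precursor sequence: gGCACGTGcatgcatgcgggc
The 3′ sequence was complementary to bases 1 to 8 of either 5′ sequence, a run of 8 nt.

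The 3 families differed in how many forms shared their counts. The miR393 main form held 69.1% of the family's counts over all libraries and the shifted form 24.1%, so that 2 sequences with different starts made up nearly the whole family. The seed of the main form took 72.1% of miR393 counts and that of the shifted form 26.9%. In miR390 the 21 nt 5′ sequence held 76.2% and the 22 nt sequence 12.2%, and their shared seed took 88.8% of counts. Counts of miR164 were spread more widely, with 30.6% in the A-ended 5′ sequence, 21.5% in the 3′ sequence, 13.7% in the form that starts 1 base later, 9.89% in the form that starts 1 base earlier and 8.05% in the T-ended 5′ sequence.

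By the match types of the files, 96.0% of miR393 counts were mature 5′ and 4.01% precursor, which here includes end variants of a mature sequence, and no mature 3′ sequence was listed. In miR390, 78.3% were mature 5′, 1.05% mature 3′ and 20.6% precursor. In miR164, 39.1% were mature 5′, 22.5% mature 3′ and 38.4% precursor. The names come from other plants: 97 of the 177 members matched precursors of Aegilops tauschii, a wild relative of wheat, so the names do not assign a sequence to 1 barley gene.

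Most counts of each family were 21 nt long. Sequences of 21 nt made up 92.0 to 94.0% of miR393 counts in heat and 93.0 to 94.3% in control libraries. For miR390 the 21 nt share was 76.7 to 86.5% in heat and 78.7 to 84.4% in control libraries, and at 22 nt it was 8.92 to 14.3% in heat and 10.7 to 14.6% in control libraries. For miR164 the 21 nt share was 82.1 to 97.2% in heat and 86.0 to 94.1% in control libraries. At 3 h the miR390 21 nt share was 78.5, 77.4 and 79.1% in heat, against 83.0, 82.7 and 84.4% in control. The heat libraries were all lower by a mean of 5.03 percentage points (exact two-sided permutation p = 0.1, the smallest that 3 against 3 allows, 0.514 when adjusted over 36 tests of length shares). This contrast is the one in which lane and temperature cannot be told apart.

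**Figure D1:**
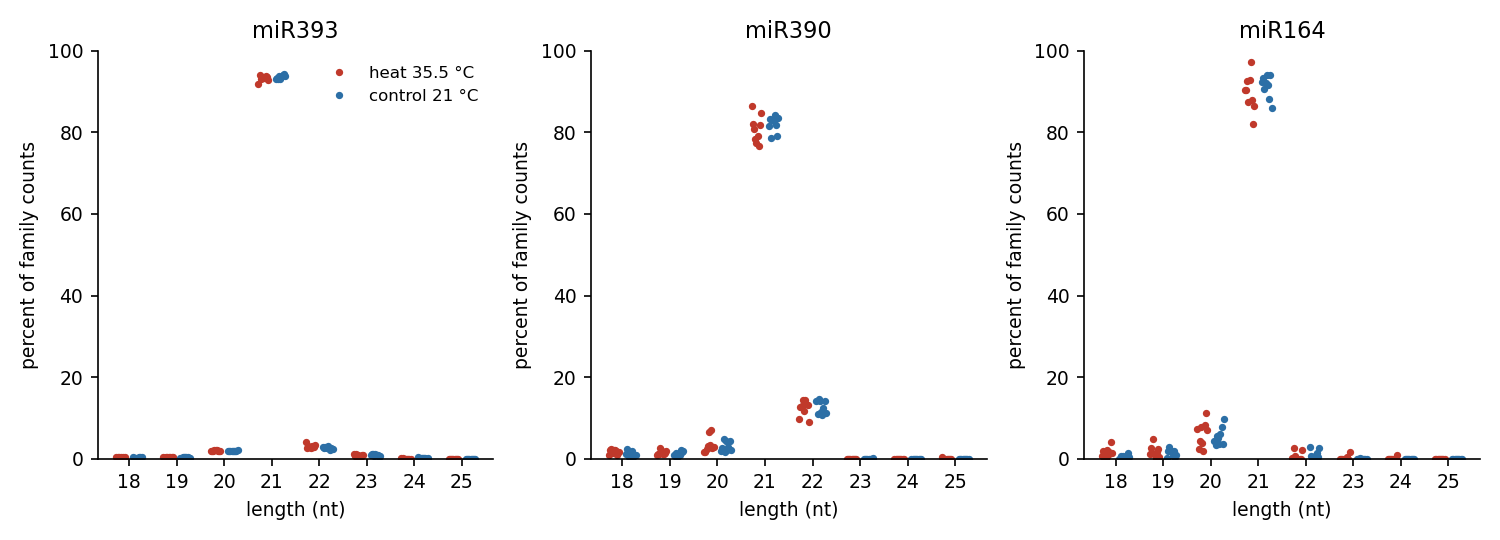
Share of each family's counts (percent, y axis) at each length from 18 to 25 nt (x axis), with 1 point per library, 9 heat libraries in red left of 9 control libraries in blue. Sequences of 21 nt dominate in all 3 families, and the 22 nt share of miR390 lies between 8.92 and 14.6%.

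The level of the families was set across durations in the authors' RPM. The miR393 total averaged 386 to 617 RPM in heat and 443 to 621 RPM in control groups. The miR390 total averaged 29.9 to 45.8 RPM in heat and 26.3 to 33.6 RPM in control groups, and miR164 9.28 to 12.3 RPM in heat and 9.75 to 10.6 RPM in control groups. The order miR393, miR390, miR164 held in all 18 libraries, and the ranges of neighbouring families did not overlap in any group. By mean CPM miR393 ranked 12th in each table, among 166, 171 and 180 families.

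The totals of the 3 families were not called at any duration. Members called were 0 of 3 at 1 h, against a background of 0% of the 74 families tested, 0 of 3 at 3 h, against 2.67% of 75, and 0 of 3 at 6 h, against 14.9% of 74. With DESeq2 the count was also 0 of 3 at each duration, and at an unadjusted p under 0.05 it was again 0 of 3. The shares of all families under an unadjusted p of 0.05 were 8.11%, 20% and 23% for the successive durations.

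At 1 h, miR393 stood at 6084, 5882 and 6582 CPM in heat and at 6509, 5819 and 5854 CPM in control, a log2 difference of 0.03 ± 0.17 with overlapping ranges. At 3 h it stood at 6959, 7497 and 6787 CPM in heat and at 13427, 8347 and 7386 CPM in control (-0.46 ± 0.26, edgeR adjusted p = 0.353). The control library of replicate 1 lay far above the others, and without it the difference was -0.15. At 6 h the values were 9074, 8969 and 6924 CPM in heat and 9075, 8223 and 8267 CPM in control, with a difference of -0.03 ± 0.16.

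For miR390 the 1 h values were 581, 495 and 377 CPM in heat and 343, 368 and 370 CPM in control. Each heat library was above each control library, and 17.6% of the families tested at 1 h had separate ranges in 1 or the other direction. The difference of 0.43 ± 0.21 was not called (edgeR adjusted p = 0.541). At 3 h miR390 had 492, 374 and 438 CPM in heat and 705, 413 and 457 CPM in control (-0.27 ± 0.26). Its 6 h values were 573, 724 and 547 CPM in heat and 457, 517 and 618 CPM in control (0.21 ± 0.22). At both durations the ranges overlapped, as they did for all 3 families, where 28% of families at 3 h and 31.1% at 6 h had separate ranges.

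For miR164 the 1 h values were 152, 153 and 294 CPM in heat and 149, 164.3 and 119 CPM in control. The difference of 0.47 ± 0.30 rested on replicate 3 of heat, and without that library it was 0.04. At 3 h the family had 142, 147 and 116 CPM in heat and 155, 185 and 124 CPM in control (-0.20 ± 0.20), and at 6 h 187, 137 and 143 CPM in heat and 173, 171 and 128 CPM in control (-0.01 ± 0.23).

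**Figure D2:**
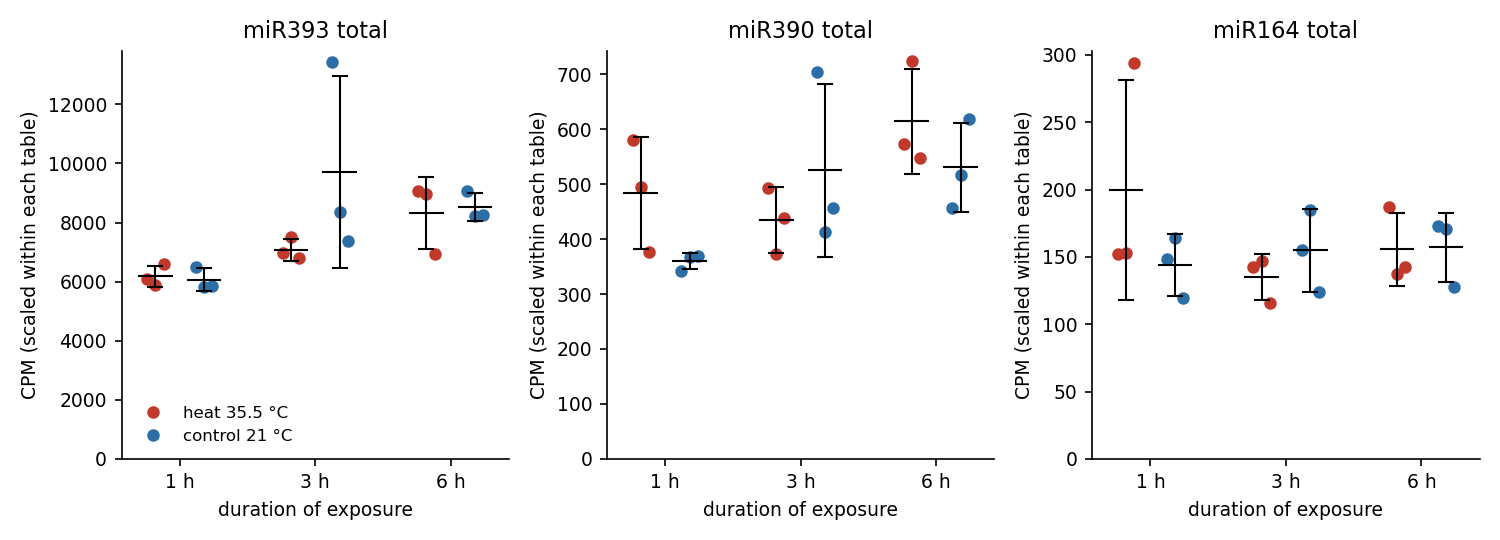
Family totals (CPM, y axis, from 0) by duration (x axis), with heat libraries in red left of control libraries in blue, 3 points per group, and the mean with its SD in black. Control replicate 1 at 3 h, with 13427 CPM of miR393, and heat replicate 3 at 1 h, with 294 CPM of miR164, stand above their groups.

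Ratios between families within a library do not depend on the scaling between libraries, and 9 of them were compared. The log2 ratio of miR393 to miR390 was 3.69 ± 0.38 in heat and 4.07 ± 0.15 in control at 1 h, 4.03 ± 0.26 in heat and 4.20 ± 0.17 in control at 3 h, then 3.76 ± 0.20 in heat and 4.01 ± 0.29 in control at 6 h (SD, n = 3 per group). Its heat mean was below its control mean at each duration, but ranges overlapped in all 9 comparisons, and the exact permutation p adjusted over the 9 tests was 0.9 or 1 for each.

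In a model of all 18 libraries, the average log2 difference over the 3 durations was -0.15 ± 0.12 for miR393, 0.12 ± 0.13 for miR390 and 0.09 ± 0.16 for miR164. None of the 3 totals was called, where 9.76% of 82 families were. Nor was a difference of the heat effect between durations called for any of the 3 totals, where 0% of the 82 families were called for 3 h against 1 h, 1.22% for 6 h against 1 h and 0% for 6 h against 3 h.

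**Figure D3:**
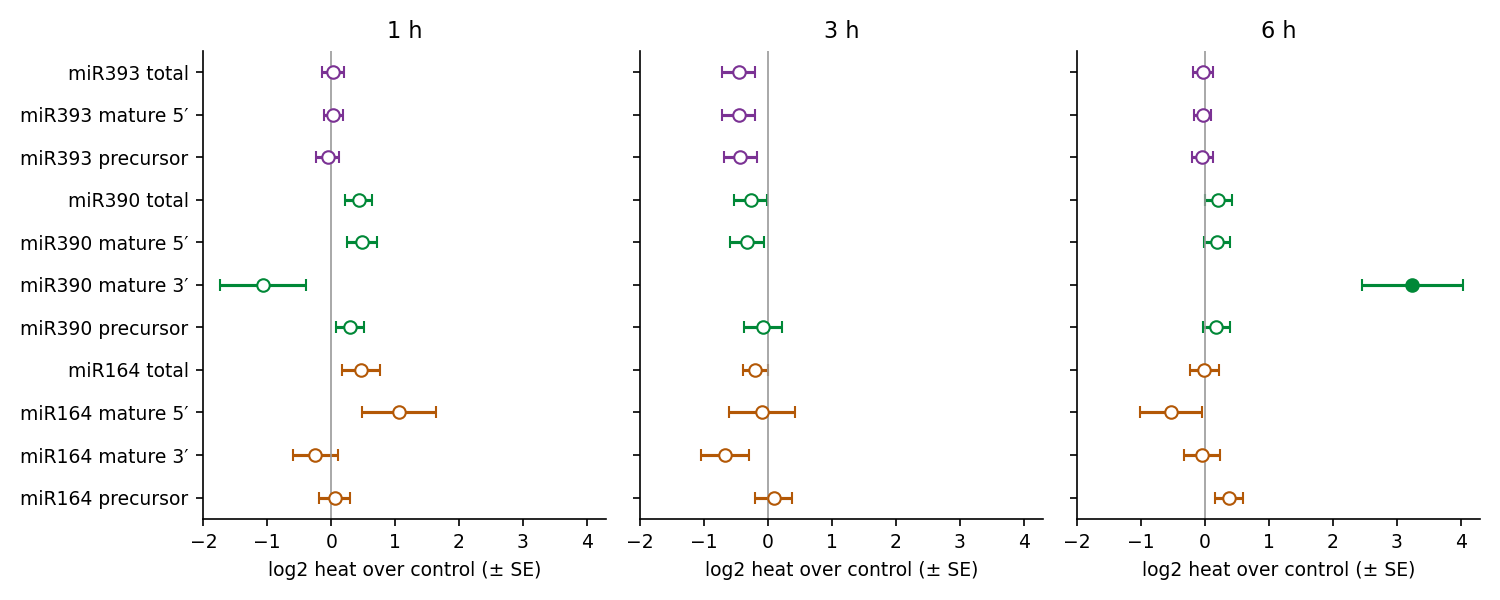
Log2 heat over control (x axis, bars are SE) of the family totals and of the totals per match type (rows) at 1, 3 and 6 h (panels), with filled points for an adjusted p under 0.05. The filled point is the miR390 mature 3′ total at 6 h, at 3.24, and the miR390 mature 3′ total at 3 h was too low to be tested.

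Of single member sequences, 26 passed the filter on low counts at 1 h, 25 at 3 h and 24 at 6 h, and they held 99.0 to 99.3% of member counts. Members called were 0 of 26 at 1 h, against a background of 1.76% of 740 sequences, 0 of 25 at 3 h, against 4.35% of 713, and 1 of 24 at 6 h, against 12.4% of 675. Unadjusted p-values under 0.05 numbered 3, 2 and 4 at 1, 3 and 6 h, against 10.4%, 19.8% and 27% of all tested sequences. DESeq2 called 0 members at 1 h, 1 at 3 h and 1 at 6 h. The median log2 difference of tested members was 0.18 at 1 h, -0.36 at 3 h and 0.07 at 6 h, and over all tested sequences it was 0.05, -0.09 and 0.04. The libraries of both temperatures fell into separate ranges for 3, 5 and 5 tested members, against 16.9%, 25.9% and 32% of all tested sequences. A member can pass the filter through 1 temperature alone, with all 3 libraries of that temperature and 0 of the other at its minimum count. This held for 0 members at 1 h, 1 at 3 h and 2 at 6 h, so the counts of members tested are not support for a difference.

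The miR393 main form, which sets the family total, had 3407, 4173 and 4145 CPM in heat and 4217, 3821 and 3871 CPM in control at 1 h. At 3 h it had 4967, 5230 and 4845 CPM in heat, against 9246, 5756 and 5245 CPM in control. The 3 heat libraries lay below the 3 control libraries, though the difference of -0.43 ± 0.27 was not called. At 6 h it had 6589, 6701 and 4657 CPM in heat and 6694, 5905 and 6283 CPM in control.

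The share of miR393 counts with the seed of the shifted form was 38.6, 25.4 and 32.6% in heat and 31.6, 30.0 and 29.7% in control at 1 h. The 3 h share was 24.8, 25.8 and 24.8% in heat and 27.6, 26.9 and 25.2% in control, and at 6 h 23.5, 21.2 and 28.03% in heat and 22.5, 24.9 and 20.6% in control. The ranges overlapped at all 3 durations, so no difference in the share of the shifted start larger than the spread of libraries was measured.

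The 22 nt miR393 form, which has the main form's start and 1 more base at its end, had 137, 90.6 and 118 CPM in heat and 82.0, 86.3 and 78.3 CPM in control at 1 h. At 6 h it had 151, 154 and 130 CPM in heat and 112, 109 and 101 CPM in control (0.44 ± 0.18, edgeR adjusted p = 0.144). Every heat library was above every control library at both durations, and the call threshold was missed at both. Its 3 h values were 109, 132 and 108 CPM in heat, against 175, 139 and 92.3 CPM in control, where the ranges overlapped. In Arabidopsis, 22 nt miRNAs are known to trigger secondary small RNAs from their targets. All listed 22 nt miR393 sequences together made up 2.92, 2.91 and 3.31% of miR393 counts in heat at 6 h, against 2.20, 2.57 and 2.39% in control (exact permutation p = 0.1, 0.514 adjusted over 36 tests).

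A pair of long miR393 forms, both G forms, were lower in heat on average over the 3 durations. The 24 nt G form had 4.58, 2.20 and 4.96 CPM in heat at 1 h, against 22.9, 8.23 and 6.40 CPM in control. At 3 h it had 4.89, 3.78 and 0 CPM in heat, against 15.8, 16.5 and 14.1 CPM in control. At 6 h it had 0.884, 0 and 0.626 CPM in heat, against 11.4, 3.77 and 7.94 CPM in control. Thus every heat library was below every control library of its duration. The counts behind these levels were 30, 20 and 3 in heat and 95, 99 and 36 in control at 1, 3 and 6 h.

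In the model of all 18 libraries the 24 nt G form fell by 2.60 ± 0.47 on the log2 scale on average (edgeR adjusted p = 0.000527). At single durations the same model gave -1.68 ± 0.71 at 1 h, -2.30 ± 0.73 at 3 h and -3.83 ± 0.96 at 6 h, with the last of these called (edgeR adjusted p = 0.0191). The sequence passed the filter of this model mainly through control, with 1 heat and 8 control libraries at its minimum, so that a sequence chosen this way tends to be lower in heat. Without a filter the average was -2.60 and was called (edgeR adjusted p = 1.76e-05). In the separate fits it was tested at 1 h (-1.64 ± 0.61) and at 3 h (-2.35 ± 0.74), where it passed through control libraries only, was called at neither, and was not tested at 6 h. At 3 h it was called in 2 of 13 alternatives, without a filter and with DESeq2. In that contrast lane and temperature cannot be told apart. The average over 1 and 6 h alone, where heat and control shared a lane, was -2.75 ± 0.60 (edgeR adjusted p = 0.00452), and 8.01% of 961 sequences were called in that contrast. Without control replicate 1 of 3 h and heat replicate 2 of 6 h the average over durations was -2.40 (edgeR adjusted p = 0.00193). The authors' deposited table gives a signed fold of -13.9 with an FDR of 0.00322 for this sequence at 6 h.

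The 23 nt G form had 14.5, 9.24 and 9.54 CPM in heat and 19.4, 11.9 and 19.9 CPM in control at 1 h, 7.75, 12.7 and 15.4 CPM in heat and 32.1, 23.8 and 19.2 CPM in control at 3 h, and 4.86, 11.6 and 5.01 CPM in heat and 21.6, 9.42 and 17.9 CPM in control at 6 h. The groups were separate at 3 h and overlapped at 1 h and 6 h. On average it fell by 0.94 ± 0.25 on the log2 scale (edgeR adjusted p = 0.0104), and this call was lost when the average was taken over 1 and 6 h only (-0.91 ± 0.30, edgeR adjusted p = 0.0757). Without control replicate 1 of 3 h and heat replicate 2 of 6 h it was -1.07 (edgeR adjusted p = 0.00520).

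Of the T forms none was called on average. The most abundant, of 22 nt, had 110, 62.5 and 87.4 CPM in heat and 106, 64.5 and 78.7 CPM in control at 1 h. It had 83.2, 63.2 and 106 CPM in heat and 182, 118 and 92.7 CPM in control at 3 h, and 107, 99.5 and 91.4 CPM in heat and 83.9, 93.5 and 89.3 CPM in control at 6 h. Ranges overlapped at all 3 durations. The files match the G forms to a precursor of Aegilops tauschii and the T forms to precursors of Glycine max, Gossypium hirsutum, Brachypodium distachyon and Oryza sativa.

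All listed G forms (8, 9 and 7 sequences at 1, 3 and 6 h) were then summed, as were the T forms (8, 8 and 9), a grouping chosen after the values of single sequences were seen. The summed G forms had 24.4, 15.4 and 15.3 CPM in heat at 1 h, against 44.5, 23.4 and 30.9 CPM in control. At 3 h they had 13.5, 22.7 and 16.0 CPM in heat, against 57.4, 43.0 and 37.2 CPM in control, and at 6 h 6.19, 17.2 and 10.6 CPM in heat, against 41.3, 21.3 and 26.5 CPM in control. The groups overlapped at 1 h and were separate at 3 h and 6 h. The summed T forms had 167, 93.3 and 153 CPM in heat and 154, 127 and 128 CPM in control at 1 h, 120, 117 and 140 CPM in heat and 255, 186 and 135.9 CPM in control at 3 h, and 147, 171 and 150 CPM in heat and 145, 134 and 138 CPM in control at 6 h. For them the groups overlapped at 1 h and 3 h, and at 6 h each heat library was slightly above each control library.

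The log2 ratio of G to T forms, which does not depend on scaling, was -2.90 ± 0.38 in heat and -2.09 ± 0.33 in control at 1 h. It was -2.89 ± 0.45 in heat and -2.04 ± 0.15 in control at 3 h, then -3.90 ± 0.63 in heat and -2.28 ± 0.43 in control at 6 h (SD, n = 3 per group). Heat libraries were all below control libraries at each duration. The grouping followed from the values of the single G forms, so the ratio restates them and is given as a description with no test. The 24 nt G form held 283 of the 350 miR393 counts at 24 nt, so the 24 nt share restates its level: 0.125, 0.0449 and 0.110% in heat and 0.371, 0.209 and 0.141% in control at 1 h, with heat below control at 3 h and 6 h. These forms hold a small part of the family, so the miR393 total is set by other sequences.

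**Figure D4:**
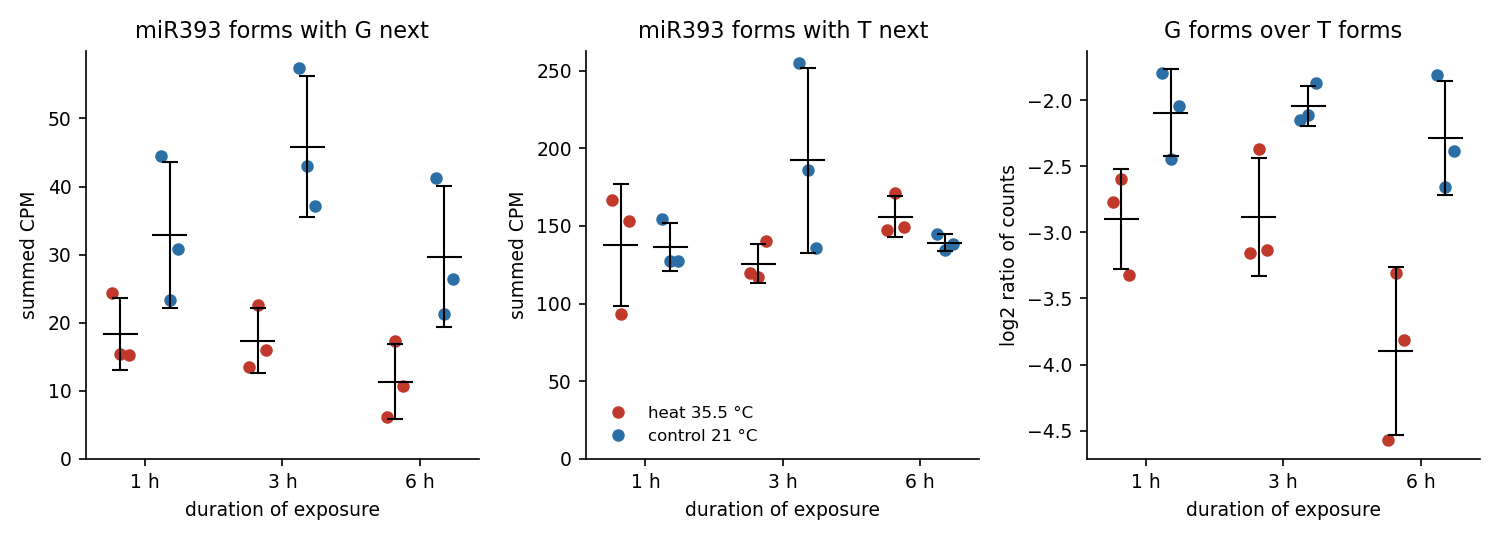
Summed CPM of the miR393 G forms and T forms and the log2 ratio of their counts (y axes) by duration (x axis), with heat libraries in red left of control libraries in blue and the mean with its SD in black. The ratio is lower in all 3 heat libraries than in all 3 control libraries at each duration.

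Over the 31 member sequences tested in the model of all 18 libraries, 3 were called lower and 0 higher on average, against a background of 14.9% of 961 sequences called, 8.32% called lower. The 3 were both G forms and the miR164c precursor sequence. The last fell by 2.20 ± 0.73 on the log2 scale (edgeR adjusted p = 0.0469), on few counts, 7, 4 and 1 in heat and 8, 19 and 20 in control at 1, 3 and 6 h. It passed the filter through control alone, with 0 heat and 3 control libraries at the minimum, and without a filter it was not called (edgeR adjusted p = 0.0922). Of the 31 members tested, 2 passed through control alone, so the count of members called lower is partly set by the filter. Its call was lost in 20 of 24 alternatives, leaving out single libraries among them. Calls for a difference of the heat effect between durations numbered 0 of 31 for each of the 3 pairs of durations, as for all 961 sequences, with 0% called in each pair. Unadjusted p-values under 0.05 numbered 2, 3 and 3 of the 31 for 3 h against 1 h, 6 h against 1 h and 6 h against 3 h, where 7.6%, 8.22% and 8.43% of all sequences had one.

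One further miR393 sequence spans the 5′ end of the mature form: aGTGGAGGattccaaagggat. It had 14.9, 11.9 and 3.05 CPM in heat and 3.89, 5.93 and 10.5 CPM in control at 1 h, and 20.8, 14.2 and 17.5 CPM in heat and 7.62, 8.79 and 8.60 CPM in control at 6 h. Heat and control did not overlap at 6 h (1.06 ± 0.36, edgeR adjusted p = 0.0946), which was not called.

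The 20 nt mature 3′ sequence of miR390, a form of its star strand, was the member called at 6 h. It had 11.9, 9.05 and 6.88 CPM in heat at 6 h, against 0, 2.51 and 0.662 CPM in control, on 59 counts in heat and 5 in control. Every heat library was above every control library, and the log2 difference was 3.05 ± 0.83 (edgeR adjusted p = 0.0463). The sequence passed the filter through heat alone, with 3 heat and 0 control libraries at its minimum, so it could be tested only because it was high in heat. Without a filter the difference was again 3.05 (edgeR adjusted p = 0.0253). At 1 h it had 3.44, 1.32 and 1.14 CPM in heat and 3.02, 4.28 and 7.90 CPM in control (-1.34 ± 0.71), and at 3 h, where it was too low to be tested, 7.75, 2.83 and 2.66 CPM in heat and 1.58, 5.95 and 2.56 CPM in control. Ranges overlapped at 1 h and 3 h. The authors' deposited table gives a signed fold of 8.305 with an FDR of 0.00452 for it at 6 h.

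The mature 3′ total of miR390, summed over its 2 listed sequences, had 12.4, 9.05 and 10.6 CPM in heat at 6 h, against 0, 2.51 and 0.662 CPM in control. Its rise of 3.24 ± 0.79 was called (edgeR adjusted p = 0.0312), 1 of the 8 totals of these families tested at 6 h, where 13.3% of 128 totals per family and match type were called. This total also passed the filter through its 3 heat libraries alone, and without a filter it was 3.25 (edgeR adjusted p = 0.0296). At 1 h the same total had 5.73, 1.32 and 1.14 CPM in heat and 4.32, 4.94 and 8.28 CPM in control (-1.07 ± 0.67), and 0 of 8 totals were called, against 0.769% of 130. At 3 h it had 8.97, 4.25 and 2.66 CPM in heat and 3.16, 5.95 and 2.56 CPM in control, and 0 of the 7 totals tested were called, against 2.33% of 129. With 1 of the 6 libraries of 6 h left out, the adjusted p of the total reached 0.106. The call of the total held without heat replicate 2 and was lost without each of the other 5 libraries, and the call of the single sequence was lost without each of the 6 (2.47 to 4.57).

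The change of the mature 3′ total with heat at 6 h differed from that at 1 h by 4.35 ± 1.07 on the log2 scale (edgeR adjusted p = 0.0387, in the model of all 18 libraries, where 2.16% of 139 totals were called). Alternatives gave differences of 3.74 to 5.89, and the call was lost in 14 of 24 of them. Leaving out control replicate 3 of 6 h gave 4.12 with an edgeR adjusted p of 0.157, and omission of 12 other single libraries also ended the call.

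The 5′ arm was not called. The mature 5′ total had 434, 566 and 436 CPM in heat at 6 h, against 356, 402 and 499 CPM in control (0.19 ± 0.20), with overlapping ranges. At 1 h it had 489, 384 and 287 CPM in heat, against 272, 284 and 274 CPM in control (0.48 ± 0.23, edgeR adjusted p = 0.558). There each heat library was above each control library, the 1 of 8 totals with separate ranges at 1 h, against 16.9% of 130. At 3 h 0 of 7 totals had separate ranges, against 24% of 129, and at 6 h 2 of 8, against 35.9% of 128. The second of these was the miR164 precursor total, with 76.9, 88.3 and 63.8 CPM in heat and 61.6, 57.1 and 57.6 CPM in control (0.38 ± 0.21, edgeR adjusted p = 0.304).

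The log2 ratio of mature 5′ to mature 3′ counts of miR390 was 7.36 ± 0.86 in heat and 5.58 ± 0.49 in control at 1 h, 6.07 ± 0.75 in heat and 6.71 ± 0.86 in control at 3 h, then 5.45 ± 0.43 in heat and 8.75 ± 1.5 in control at 6 h (SD, n = 3 per group). Heat libraries were all above control libraries at 1 h and all below them at 6 h, and at 3 h the groups overlapped. The exact permutation p was 0.1 at 1 h and at 6 h, and 0.45 when adjusted over the 9 ratios of arms.

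A pair of shorter sequences from the same arm, which both lack the first base of the mature 3′ sequence, were not called at any duration. Both are of the precursor match type, so the mature 3′ total and the ratio of arms leave them out. Over all libraries the 18 nt sequence held 213 counts and the 19 nt sequence 205, against 172 for the 20 nt mature 3′ sequence. The 18 nt sequence, gCTATCTAtcctgagctc, had 4.96, 9.24 and 9.16 CPM in heat and 0.863, 8.56 and 1.88 CPM in control at 1 h (0.99 ± 0.73). At 3 h, where it was too low to be tested, it had 3.26, 7.55 and 4.26 CPM in heat and 3.16, 0.458 and 8.97 CPM in control. At 6 h it had 6.63, 7.33 and 7.51 CPM in heat and 2.54, 5.02 and 3.97 CPM in control (0.88 ± 0.52, edgeR adjusted p = 0.346). Its groups overlapped at 1 h and 3 h and were separate at 6 h, where it too passed the filter through heat alone. The 19 nt sequence, gCTATCTAtcctgagctcc, was too low to be tested at 1 h, with 4.58, 4.40 and 3.82 CPM in heat and 3.02, 1.98 and 3.39 CPM in control, and at 3 h, with 11.0, 8.49 and 1.60 CPM in heat and 2.11, 2.75 and 3.85 CPM in control. At 6 h it had 5.30, 7.76 and 7.51 CPM in heat and 9.53, 7.53 and 9.92 CPM in control (-0.39 ± 0.45). Each heat library was above each control library at 1 h, and the groups overlapped at 3 h and 6 h.

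**Figure D5:**
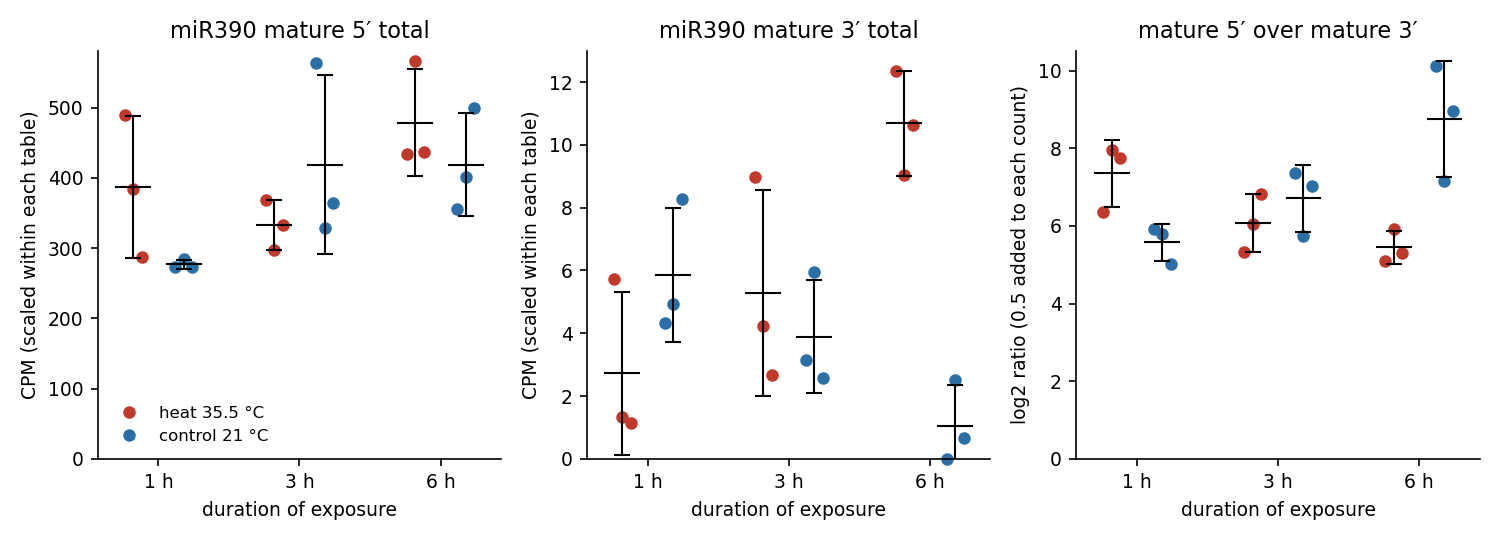
CPM of the miR390 mature 5′ and mature 3′ totals and the log2 ratio of their counts (y axes) by duration (x axis), with heat libraries in red left of control libraries in blue and the mean with its SD in black. At 6 h the mature 3′ total is at 9.05 to 12.4 CPM in heat and at 0 to 2.51 CPM in control, while at 1 h the ratio is higher in heat.

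The main miR390 sequence, the 21 nt 5′ form, had 484, 376 and 280 CPM in heat and 269, 281 and 265 CPM in control at 1 h, with 1 heat library within the range of the controls. Its 3 h values were 361, 275 and 321 CPM in heat and 554, 316 and 359 CPM in control, and its 6 h values 409, 555 and 427 CPM in heat and 342, 385 and 486 CPM in control. The 22 nt form had 54.2, 61.2 and 49.2 CPM in heat and 46.6, 40.2 and 51.2 CPM in control at 1 h, and overlapped at the other durations also. Between 94.0 and 96.8% of miR390 counts began with A in heat libraries, and 95.3 to 98.2% in control libraries, where 2.42 to 4.20% of all listed counts did in heat and 2.39 to 3.78% in control.

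Within miR164 the form that starts 1 base later lay on opposite sides of control at 1 h and 6 h. It had 13.4, 11.9 and 14.1 CPM in heat and 36.7, 33.3 and 18.4 CPM in control at 1 h. At 3 h it had 32.6, 20.3 and 22.4 CPM in heat and 13.2, 18.3 and 26.5 CPM in control. At 6 h it had 23.0, 34.5 and 25.03 CPM in heat and 8.26, 8.16 and 19.8 CPM in control. All heat libraries were below all control libraries at 1 h and above them at 6 h, and the groups overlapped at 3 h.

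The log2 difference of this form was -1.16 ± 0.37 at 1 h (edgeR adjusted p = 0.218) and 1.19 ± 0.42 at 6 h (edgeR adjusted p = 0.106), neither of them called. Without control replicate 3 of 6 h, the highest of its group, the 6 h value was 1.72 and called (edgeR adjusted p = 0.0429). The difference between both effects was 2.38 ± 0.56 with an unadjusted p of 0.000421 and an edgeR adjusted p of 0.196 over 961 sequences, which misses the threshold. With DESeq2 it was called (adjusted p = 0.0361). The share of miR164 counts with the seed of this form was 9.80, 9.51 and 7.91% in heat and 26.5, 21.6 and 17.98% in control at 1 h (exact permutation p = 0.1, 0.771 adjusted over 27 seed shares), and 13.9, 26.3 and 20.2% in heat and 6.99, 7.35 and 19.7% in control at 6 h.

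The A-ended 5′ sequence of miR164, a mature form that targets NAC mRNAs in other plants, had 37.8, 50.6 and 204 CPM in heat and 41.4, 56.0 and 33.5 CPM in control at 1 h. The heat library of replicate 3 stood far above the other 5 libraries, and it also had the highest family total at 1 h. At 3 h the sequence had 38.3, 54.3 and 18.6 CPM in heat and 31.6, 66.9 and 15.8 CPM in control, and at 6 h 42.9, 13.4 and 17.5 CPM in heat and 49.6, 39.5 and 16.5 CPM in control. The groups overlapped at each duration (1.16 ± 0.53, -0.04 ± 0.55 and -0.51 ± 0.52 at 1, 3 and 6 h, none called).

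The T-ended 5′ sequence had 6.87, 11.4 and 18.7 CPM in heat and 8.20, 9.88 and 6.77 CPM in control at 1 h, and it also overlapped at 3 h and 6 h. The 3′ sequence had 32.1, 29.0 and 12.6 CPM in heat and 26.3, 29.6 and 31.2 CPM in control at 1 h, 19.97, 29.3 and 49.5 CPM in heat and 61.05, 45.8 and 46.6 CPM in control at 3 h, and 42.9, 25.4 and 46.9 CPM in heat and 35.6, 40.2 and 32.4 CPM in control at 6 h. The log2 ratio of mature 5′ to mature 3′ counts of miR164 was 1.85 ± 1.86 in heat and 0.77 ± 0.38 in control at 1 h, 0.54 ± 1.19 in heat and -0.20 ± 0.96 in control at 3 h, then -0.10 ± 0.62 in heat and 0.40 ± 0.63 in control at 6 h (SD, n = 3 per group). None of these 3 comparisons separated heat from control. The ratio leaves out the forms that start 1 base later and 1 base earlier, which overlap the 5′ sequences but are of the precursor match type. They held 854 and 618 counts over all libraries, against 2443 for mature 5′. The form that starts 1 base earlier had 32.1, 17.2 and 8.01 CPM in heat and 15.5, 10.2 and 12.04 CPM in control at 1 h and overlapped at each duration.

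Of other families tied to auxin, miR160 and miR167, which target mRNAs of auxin response factors, were tested, and miR847, known for an Aux/IAA target in Arabidopsis, had 0 listed sequences. The miR167 total, named here from a list chosen with earlier results known, had 44812, 38460 and 39227 CPM in heat at 6 h and 31237, 29781 and 27968 CPM in control. It rose by 0.46 ± 0.11 (edgeR adjusted p = 0.0349), a call that was lost in 9 of 15 alternatives, among them without each single library (edgeR adjusted p 0.0628 to 0.182). The miR160 total had 1196, 1080 and 981 CPM in heat at 6 h and 884, 830 and 852 CPM in control (0.34 ± 0.18, edgeR adjusted p = 0.354), which was not called. Ranges were separate for 2 of these 5 auxin-related totals at 6 h, miR167 and miR160, against 31.1% of all families tested. They were also separate for 2 of 5 at 1 h, miR390 and miR160, against 17.6%, and for 0 of 5 at 3 h, against 28%. Calls numbered 1 of 5 at 6 h, against 14.9% of all families, 0 of 5 at 1 h, against 0%, and 0 of 5 at 3 h, against 2.67%, so the share called at 6 h was near the background. The median log2 difference of the 5 was 0.25, -0.20 and 0.21 at 1, 3 and 6 h, and that of all families tested was 0.11, -0.22 and -0.03.

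The families most like each member in level over the 18 libraries were sought with log2(RPM + 1) totals, each minus the mean of its own table. Candidates had a mean of at least 10 RPM at each duration, which miR164 did not reach at 3 h. For miR393 they were miR168 (Pearson r = 0.89), miR394 (0.755) and miR171 (0.72) among 33 other families. For miR390 they were miR160 (0.71), miR1432 (0.63) and miR393 (0.61). For miR164 they were miR397 (0.49), miR399 (0.48) and miR319 (0.45) among 34, and its r was 0.40 with miR393 and -0.0049 with miR390. These values describe 18 libraries that share scaling by library total.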

How the data were processed

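The files list each distinct trimmed sequence with its annotation to plant miRNA precursors and a match type, per the file headers. In the authors' tables the counts are whole reads in each library, and the deposited RPM equal them times 1 constant per library. Deposited p-values, FDR values and the signed linear fold score come from an "EDGE" test, per the file headers. The tools behind these steps, and their versions, are not given in any source used here.

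The tests on counts used edgeR 4.0.16 under R 4.3.3 (quasi-likelihood, TMM, minimum count 10, minimum total 15, Benjamini-Hochberg over all features of a table) per sequence, per family and per family and match type, on the 6 libraries of a duration. Sequences in all 3 tables were also fitted in 1 model of 18 libraries. The SE of a log2 difference was derived from the test, as its absolute value over the square root of the quasi-likelihood F statistic. Shares and log2 ratios (0.5 added) had exact two-sided permutation tests. Sequences named are those called, the 2 most abundant per family and match type, and up to 10 more per family of at least 10 CPM. The star and G forms below 10 CPM and the 18 and 19 nt miR390 sequences were named after their values were seen. Alternatives were DESeq2 1.42.0, other scaling, other filters and leaving out libraries. The fits were also run on simulated counts with the same spread for all sequences, so that run does not vouch for calls on few counts. Replicate libraries differed by more than sampling noise (chi-square 18.4 to 423 for each degree of freedom). Members, lists and tests were chosen with earlier results of these data known.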

Additional observations from a re-analysis of the deposited data

Results flagged for a closer look

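The log2 ratio of mature 5′ to mature 3′ counts of miR390 lay on opposite sides of control at 1 h and 6 h. It was higher in all 3 heat libraries at 1 h, with a mean difference of 1.79, and lower in all 3 at 6 h, with a mean difference of -3.30. For the ratio itself the difference between durations was not tested. Its mature 3′ counts leave out the 18 and 19 nt sequences of that arm, which are of the precursor match type. Over heat and control libraries together, these had 91 and 54 counts at 1 h and 62 and 84 counts at 6 h. At 1 h the 19 nt sequence was higher in all 3 heat libraries. The 18 nt sequence was also higher with heat on average, but its groups overlapped. Both thus ran opposite to the mature 3′ total at 1 h. At 6 h the 18 nt sequence was higher in all 3 heat libraries, and the 19 nt sequence overlapped. The higher ratio at 1 h therefore describes the mature match types only, and no sum over the whole arm was tested. For the mature 3′ total behind the ratio, the heat effect at 6 h minus that at 1 h was 4.35 on the log2 scale. This difference was called in the model of 18 libraries (edgeR adjusted p = 0.0387), where 2.16% of 139 totals were called. The call was lost in 14 of 24 alternatives. It rests on 21 and 47 counts in heat and control at 1 h and on 66 and 5 at 6 h.

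The miR164 form that starts 1 base later was lower in all 3 heat libraries at 1 h, with a log2 difference of -1.16, and higher in all 3 at 6 h, with 1.19. The difference between both effects had an edgeR adjusted p of 0.196.

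The 20 nt share of miR393 counts was lower in all 3 heat libraries at 1 h, by a mean of -0.0763 percentage points, and higher in all 3 at 3 h, by 0.210 points. This difference between durations was not tested, and at 3 h temperature and lane cannot be told apart.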

How the results depend on the processing

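No paired analysis was possible because the replicate numbers follow accession order and the labels pair no libraries. Over all features, sequences called at 1 h numbered 28 without a filter and 21 with DESeq2, and 7 to 22 with 1 library left out. Sequences called at 3 h numbered 55 without a filter, 54 with DESeq2 and 64 in the model of 18 libraries, and 9 to 48 with 1 library left out. At 6 h leaving out 1 library gave 25 to 78. Family totals called at 1 h numbered 1 with RLE factors, with implied library totals, with DESeq2 and in the model of 18 libraries, 2 without a filter, and 0 to 1 with 1 library left out. At 3 h DESeq2 called 5 families and mature match types alone gave 1. At 6 h implied library totals gave 3 and leaving out 1 library 1 to 9. Totals per family and match type called at 1 h numbered 3 without a filter, 2 with DESeq2 and 0 to 3 with 1 library left out. At 3 h they numbered 13 without a filter, 10 with DESeq2, 7 in the model of 18 libraries and 3 to 6 with 1 library left out, and at 6 h 32 with DESeq2 and 1 to 18 with 1 library left out.

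Member sequences called at 3 h numbered 1 without a filter and 1 with DESeq2. At 6 h they numbered 2 without a filter, 2 in the model of 18 libraries, 0 at a minimum of 10 CPM in 3 libraries, and 0 to 1 with 1 library left out, and member totals per match type numbered 0 at that minimum and 0 to 1 with 1 library left out. Averaged over 1 and 6 h, 77 sequences were called, 1 of them a member. The loss at the minimum of 10 CPM follows from its construction, since the miR390 mature 3′ sequence is below it, and the cause of the other changes was not tested.

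Values that changed sign were not called under either sign. With implied library totals these were miR393 (-0.20 at 1 h, 0.22 at 6 h), miR164 (0.21 at 6 h), miR160 (0.11 at 3 h), and the totals miR393 mature 5′ (-0.19 at 1 h, 0.22 at 6 h), miR393 precursor (0.20 at 6 h), miR164 precursor (-0.17 at 1 h), miR390 precursor (0.025 at 3 h) and miR164 mature 3′ (0.12 at 6 h). Library size scaling gave miR164 0.023 at 6 h, miR167 -0.10 at 3 h and miR164 precursor -0.14 at 3 h. The model of 18 libraries gave miR393 -0.013 and its mature 5′ total -0.0098 at 1 h, and miR160 0.064 at 3 h, where RLE factors and DESeq2 both gave 0.032. Mature match types alone gave miR160 -0.10 at 1 h and -0.34 at 6 h.

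With 1 library left out, log2 differences that spanned 0 were miR393 at 1 h (-0.057 to 0.077) and 6 h (-0.12 to 0.055), miR164 at 6 h (-0.19 to 0.040) and averaged over durations (-0.050 to 0.15), miR160 at 3 h (-0.20 to 0.42), miR393 mature 5′ at 1 h (-0.054 to 0.079) and 6 h (-0.12 to 0.057), miR393 precursor at 1 h (-0.14 to 0.041) and 6 h (-0.14 to 0.011), miR390 precursor at 3 h (-0.23 to 0.20), miR164 mature 5′ at 3 h (-0.44 to 0.48), miR164 mature 3′ at 1 h (-0.51 to 0.0028) and 6 h (-0.23 to 0.13), and miR164 precursor at 1 h (-0.11 to 0.14) and 3 h (-0.20 to 0.32).

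Length shares, in percentage points, turned positive without the most abundant sequence for 21 nt of miR393 at 1 h (0.389), miR390 at 6 h (0.444) and miR164 at 3 h (1.90), and with mature match types alone for miR164 at 1 h (0.480) and 3 h (0.966). With 1 library left out they spanned 0 for 21 nt of miR393 at 1 h (-0.725 to 0.272) and 3 h (-0.285 to 0.112), of miR390 at 6 h (-2.26 to 1.72) and of miR164 at 3 h (-2.49 to 2.43), and for 22 nt of miR393 at 3 h (-0.099 to 0.227).

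Without the most abundant sequence the log2 ratio of arms turned to 0.13 for miR393 at 6 h, 0.14 for miR390 at 3 h and 1.35 for miR164 at 6 h, and the ratio of families to 0.075 and 0.12 for miR393 to miR164 at 1 h and 6 h and to 0.22 and 0.057 for miR390 to miR164 at 1 h and 3 h. With 1 library left out, ratios spanned 0 for miR393 match types at 3 h (-0.041 to 0.049) and 6 h (-0.070 to 0.058), for miR393 to miR164 at 3 h (-0.45 to 0.023) and 6 h (-0.17 to 0.092), and for miR390 to miR164 at 1 h (-0.31 to 0.48) and 3 h (-0.35 to 0.17).

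The average fall of the 24 nt G form of miR393 was called in 26 of 26 alternatives, at -2.86 to -2.35. That of the 23 nt G form was called in 25 of 26, and was lost over 1 and 6 h alone, where heat and control shared a lane. The alternatives reuse the same libraries, and most keep the filter that the 24 nt form passed mainly through control. Depth limits the calls on few counts. At 6 h the miR390 mature 3′ total had 5 counts in control. In heat at 6 h the 24 nt G form of miR393 had 3 counts and the miR164c precursor sequence 1.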
